A study of Mus musculus with 18 samples.

Results

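The receptors and bridging molecules by which phagocytes take up apoptotic cells were followed in light-damaged mouse retina through 10 genes, Mertk, Axl, Tyro3, Gas6, Pros1, Mfge8, Itgav, Itgb5, Lrp1 and Megf10. They were taken by their symbols from the 23420 genes counted in each library, and all 10 were among the 15196 genes that passed the filter on low counts. Photoreceptors and other retinal cells that die are taken up by phagocytes, which recognize phosphatidylserine on the surface of the dying cell. The receptor tyrosine kinases Tyro3, Axl and Mertk, together called TAM receptors, bind phosphatidylserine through the bridging proteins Gas6 and Pros1 (protein S). The integrin of the subunits Itgav and Itgb5 binds it through the secreted bridge Mfge8, and Lrp1 and Megf10 are further engulfment receptors. In the eye, Mertk and this integrin are known above all from the retinal pigment epithelium, which takes up shed rod outer segments every day, whereas Axl is an engulfment receptor of activated microglia and macrophages, and Megf10 is known from glia that engulf synapses and dead neurons.

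RNA of whole retina had been sequenced from 9 wild-type (wt) BALB/cJ mice, an albino strain, aged 8 to 10 weeks and of both sexes per the methods of the study, in 3 groups of 3. Naïve mice received neither light nor treatment. Vehicle-treated mice were exposed to white light of 15000 lux for 1 h after dark adaptation and given daily intraperitoneal DMSO from the day before, and TD139-treated mice had the same light and 15 mg/kg of TD139, a small-molecule inhibitor of galectin-3, in DMSO. Retinas were taken 4 days after light, and the naïve mice carry the same time label. No group received the light without an injection, so light and DMSO cannot be told apart between naïve and vehicle-treated mice. Where a difference is given as with light below, it is that of vehicle-treated against naïve mice and includes DMSO.

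Between 26171887 and 30201517 reads per mouse lay on genes, and a member had between 131 and 12201 reads in a mouse. Levels are given as CPM, the reads of a gene scaled to the size of its library after normalization between libraries. The levels of the members are compared with each other only per length, as TPM, that is reads divided by the longest annotated transcript and scaled to a fixed total. The choice of abundant genes to name from the other lists used reads not divided by length. The 7 rod markers, which define retina, summed to between 38825 and 75878 CPM in every mouse. The retina of vehicle-treated mouse 2 stood apart by its lens genes, which summed to 6928 CPM against at most 282 CPM in the other mice. For the members, the calls made without this mouse are given below, whereas marker values include it. Whole tissue was measured, so fewer cells of a type and less RNA per cell cannot be told apart.

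Per length, the bridges Mfge8 and Gas6 were far more abundant than the receptors. In naïve retinas Mfge8 had 494 ± 27.2 TPM (SD, n = 3) and Gas6 374 ± 6.06, followed by Itgb5 at 57.7 ± 1.67 and Lrp1 at 38.4 ± 3.92. Pros1 at 19.7 ± 19.3 and Itgav at 15.5 ± 5.36 came next and lay within the spread of each other. The place of Pros1 rested on naïve mouse 3 at 41.9 TPM, against 6.60 and 10.6 TPM in naïve mice 1 and 2. Tyro3 at 10.3 ± 0.690, Axl at 9.55 ± 1.89, Megf10 at 6.46 ± 1.05 and Mertk at 5.72 ± 3.03 closed the order, and the mice of neighbouring genes overlapped among these 4. In vehicle-treated retinas Axl stood at 25.6 ± 7.30 and Tyro3 at 16.3 ± 1.26 TPM, while Mertk stood at 7.65 ± 1.70.

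Promoter sequence is shown for Axl, Tyro3 and Itgb5, which were higher in the vehicle-treated mice than in both other groups, and for Lrp1, whose level lay above the naïve mice in both light-exposed groups before correction for transcript length. On GRCm38 the genes, all protein-coding, span chr7:25757273-25788705 (Axl), chr2:119797733-119818104 (Tyro3), chr16:33829665-33949338 (Itgb5) and chr10:127538161-127621148 (Lrp1). Each line gives the 250 bases before the RefSeq start on GRCm38.p6, read on the strand of the gene. The RefSeq start of Tyro3 used for its window lies downstream of the start of the annotated gene, so that this window lies inside the gene span. The windows lie at chr7:25788734-25788983 (minus strand), chr2:119799264-119799513 (plus), chr16:33829415-33829664 (plus) and chr10:127621149-127621398 (minus). Capitals mark the GC box GGGCGG and the palindromic STAT motif TTCNNNGAA, on either strand.
Axl: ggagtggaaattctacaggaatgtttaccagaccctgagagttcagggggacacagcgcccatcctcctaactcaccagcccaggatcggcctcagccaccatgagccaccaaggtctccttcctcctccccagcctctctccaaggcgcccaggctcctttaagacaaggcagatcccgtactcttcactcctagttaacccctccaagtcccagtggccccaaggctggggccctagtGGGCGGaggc
Tyro3: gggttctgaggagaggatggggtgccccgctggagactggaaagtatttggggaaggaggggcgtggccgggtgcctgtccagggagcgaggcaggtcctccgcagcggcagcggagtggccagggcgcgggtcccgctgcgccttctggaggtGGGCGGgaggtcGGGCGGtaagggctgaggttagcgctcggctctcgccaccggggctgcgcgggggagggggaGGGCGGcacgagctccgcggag
Itgb5: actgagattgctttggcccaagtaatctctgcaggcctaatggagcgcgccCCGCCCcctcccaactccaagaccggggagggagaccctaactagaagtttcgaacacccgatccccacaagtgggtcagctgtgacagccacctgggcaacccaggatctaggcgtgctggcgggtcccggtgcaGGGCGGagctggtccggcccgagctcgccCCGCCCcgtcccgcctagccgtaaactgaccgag
Lrp1: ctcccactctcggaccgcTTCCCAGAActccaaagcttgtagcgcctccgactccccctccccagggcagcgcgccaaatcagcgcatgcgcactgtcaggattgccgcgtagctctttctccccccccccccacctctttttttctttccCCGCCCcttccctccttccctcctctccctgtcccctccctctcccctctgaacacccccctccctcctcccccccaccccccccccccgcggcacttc
The GC box occurred 1 time in the Axl window, 3 times each in those of Tyro3 and Itgb5 and 1 time in that of Lrp1, and 32.7% of 32851 windows of this length held it. The STAT motif, held by 7.02% of all windows, was present in the window of Lrp1 and absent from those of Axl, Tyro3 and Itgb5. Among the 9 members with a window in the table, Pros1 was the other one with this motif, and its match did not overlap a GC box. Neither the AP-1 motif TGANTCA, held by 6.75% of all windows, nor the E-box CACGTG, held by 6.02%, occurred in any of the 9. A match is a description of these letters only.

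Light exposure with vehicle was first set against naïve retinas, which asks how this machinery differs 4 days after light. Axl, Tyro3, Itgb5, Lrp1 and Megf10 rose, and the abundant bridges Gas6 and Mfge8 did not pass the test. By edgeR's quasi-likelihood test with Benjamini-Hochberg adjustment over all tested genes, 5 of the 10 members were higher at an adjusted p under 0.05 and 0 were lower, where 4.91% of all tested genes were higher and 2.89% lower. The vehicle-treated mice all lay above the naïve mice for 6 members and below them for 1, against 16.7% and 16.6% of all tested genes. The median log2 fold change was 0.57 over the members and -0.00175 over all tested genes. At an unadjusted p under 0.05, 6 members were higher and 1 was lower, against 14.4% and 13.2% of all tested genes, and DESeq2 called 6 and 0 after adjustment, against 8.92% and 7%. The study used a log2 fold change of 2 in either direction as its cut-off, and 0 members passed it together with the adjusted p in any comparison. Of all tested genes 1.24% passed it upward and 0.00658% downward with light and vehicle against naïve mice, 0.125% and 1.53% with TD139 against vehicle, and 0.0197% and 0.00658% with TD139 against naïve mice.

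**Figure D1:**
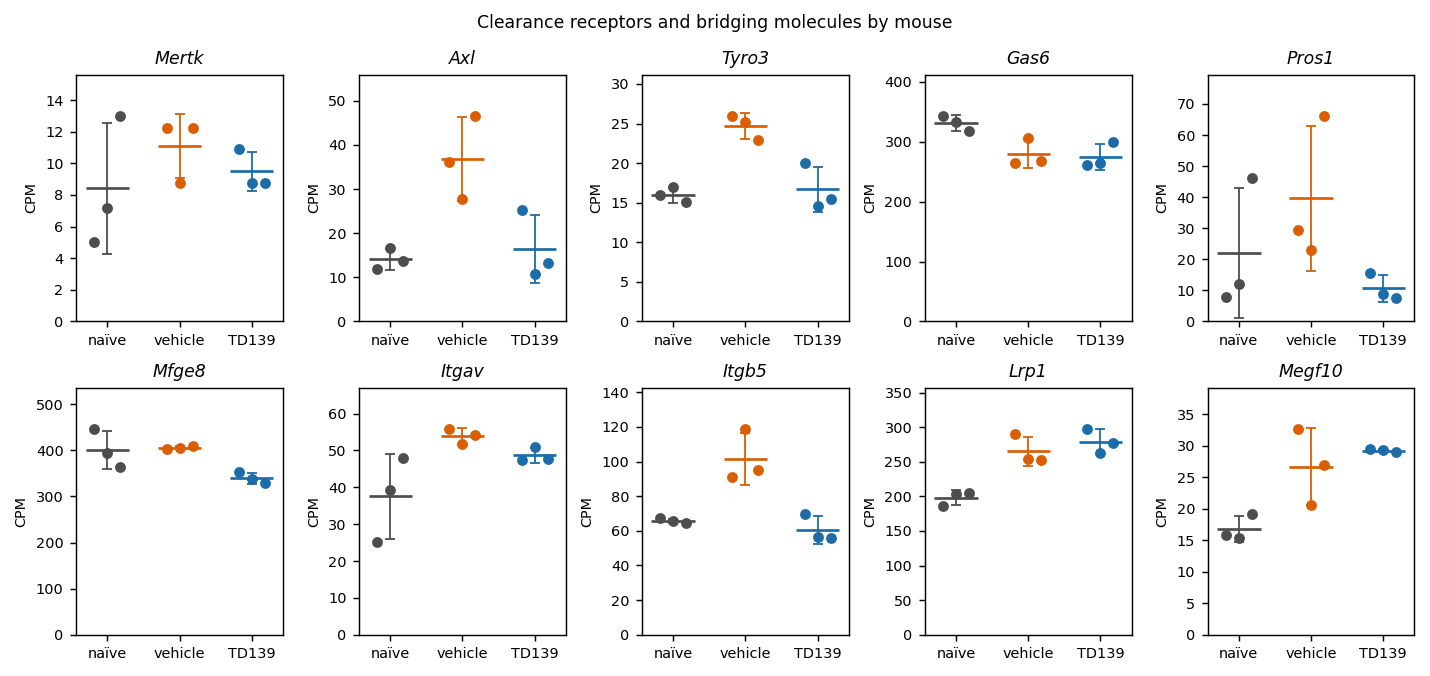
Level of each of the 10 genes in CPM (y axis, from 0, a scale for each gene) in naïve, vehicle-treated and TD139-treated mice, with 1 point per mouse in the order of the mouse numbers. Horizontal lines are group means and error bars the SD (n = 3). Axl, Tyro3 and Itgb5 peak in the vehicle-treated mice, whereas Lrp1 and Megf10 are above the naïve mice in both light-exposed groups.

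Axl is the TAM receptor with the largest fold change. It stood at 11.9, 16.7 and 13.7 CPM in the naïve mice, at 36.1, 27.8 and 46.6 CPM in the vehicle-treated mice and at 25.2, 10.8 and 13.3 CPM in the TD139-treated mice. Every vehicle-treated mouse lay above every other mouse, and TD139-treated mouse 1 lay above all naïve mice while the other TD139-treated mice lay among or below them. The rise in vehicle-treated mice was 2.61-fold (log2 fold change 1.39 ± 0.31, SE; adjusted p = 0.0319 by edgeR). This call was made in 10 of 12 other fits with all mice and in 4 of 9 with a mouse left out. The TD139-treated mice had 0.446 times the vehicle level (log2 fold change -1.17 ± 0.31; adjusted p = 0.0197 by edgeR).

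Tyro3, the TAM receptor best known from neurons, moved less and with a smaller spread. Its level was 16.02, 17.03 and 15.03 CPM in the naïve mice, 25.99, 25.15 and 22.88 CPM in the vehicle-treated mice and 19.98, 14.58 and 15.45 CPM in the TD139-treated mice. The vehicle-treated mice did not overlap with either other group, and TD139-treated mouse 1 was again the highest of its group. Against naïve mice the vehicle-treated mice had a log2 fold change of 0.62 ± 0.14 (adjusted p = 0.0287 by edgeR), and TD139 against vehicle gave -0.57 ± 0.14 (adjusted p = 0.0138).

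Mertk, the TAM receptor that outer segment uptake depends on, did not pass the test in any comparison. Its level was 5.03, 7.20 and 13.0 CPM in the naïve mice, 12.3, 8.72 and 12.3 CPM in the vehicle-treated mice and 10.9, 8.77 and 8.77 CPM in the TD139-treated mice. The groups overlapped in all comparisons, and naïve mouse 3 was the highest of the 9. The log2 fold change in vehicle-treated against naïve mice was 0.40, with a 95% interval from -0.26 to 1.05 that holds 0 as well as the value of Tyro3. With a mouse left out this log2 fold change ran from 0.15 to 0.86.

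Gas6, the bridge of all 3 TAM receptors, did not pass the edgeR test in any comparison before correction for length. It stood at 343, 332 and 318 CPM in the naïve mice, at 265, 306 and 268 CPM in the vehicle-treated mice and at 261, 264 and 299 CPM in the TD139-treated mice. Both light-exposed groups lay below the naïve mice without overlap, and they overlapped with each other. The log2 fold change was -0.24 ± 0.10 for vehicle-treated (adjusted p = 0.132 by edgeR) and -0.27 ± 0.10 for TD139-treated mice (adjusted p = 0.0989), both against naïve mice. Gas6 shares exon positions with Tmem255b on the opposite strand, whose 29 to 142 reads per mouse compare with 7041 to 8935 for Gas6, and whether the counting used the strand is not given in the sources used here.

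Pros1, the second TAM bridge, varied more among mice than any other member in the naïve and vehicle-treated groups, whereas Axl varied more in the TD139-treated group. Its level was 7.99, 11.98 and 46.07 CPM in the naïve mice, at 29.6, 23.0 and 66.2 CPM in the vehicle-treated mice and at 15.7, 8.77 and 7.51 CPM in the TD139-treated mice. Naïve mouse 3 and vehicle-treated mouse 3 were far above the rest, and all TD139-treated mice lay below all vehicle-treated mice. With a mouse left out, the log2 fold change with light and vehicle ran from 0.26 to 1.99, and that with TD139 against vehicle from -2.28 to -1.30. With all mice the former was 0.85 ± 0.75 (adjusted p = 0.507 by edgeR), and the latter was -1.89 ± 0.78 (adjusted p = 0.102). The latter was called lower in 3 of 12 other fits with all mice, with an adjusted p from 0.034 to 0.142 by edgeR, DESeq2 or limma voom.

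Itgb5, the subunit that makes Itgav the integrin of outer segment binding, had the smallest adjusted p of the 10 genes in both comparisons with the vehicle-treated mice. It stood at 67.1, 65.7 and 64.5 CPM in the naïve mice, at 91.06, 118.8 and 94.99 CPM in the vehicle-treated mice and at 69.8, 56.4 and 55.7 CPM in the TD139-treated mice. The vehicle-treated mice lay above all others, with mouse 2, the one with lens genes, highest. Their log2 fold change was 0.63 ± 0.12 against naïve mice (adjusted p = 0.0216 by edgeR), and TD139 against vehicle gave -0.74 ± 0.12 (adjusted p = 0.00568). Without vehicle-treated mouse 2 these were 0.50 (adjusted p = 0.0377 by edgeR) and -0.62 (adjusted p = 0.0146), and over the 9 fits with a mouse left out the adjusted p ran from 0.0042 to 0.0788 and from 0.000725 to 0.0347.

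Its partner Itgav, a subunit that several integrins share, stood at 25.3, 39.4 and 47.9 CPM in the naïve mice, at 55.8, 51.6 and 54.3 CPM in the vehicle-treated mice and at 47.4, 51.0 and 47.7 CPM in the TD139-treated mice. All vehicle-treated mice lay above all other mice for Itgav, and the naïve mice spread widely. Neither the log2 fold change of 0.52 ± 0.18 with light and vehicle (adjusted p = 0.0941 by edgeR) nor that of -0.15 ± 0.18 with TD139 against vehicle (adjusted p = 0.55) passed the test. With a mouse left out the former ran from 0.32 to 0.74.

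Mfge8, the bridge to this integrin, did not pass the edgeR test in any comparison with all 9 mice fitted together after TMM normalization. It stood at 446, 393 and 364 CPM in the naïve mice, at 403, 405 and 410 CPM in the vehicle-treated mice and at 353, 338 and 329 CPM in the TD139-treated mice. The vehicle-treated mice lay within the naïve range, and the TD139-treated mice lay below both groups. Light and vehicle gave a log2 fold change of 0.02 with a 95% interval from -0.19 to 0.23, and TD139 against vehicle gave -0.26 ± 0.10 (adjusted p = 0.0605 by edgeR). In TD139 against vehicle Mfge8 was called lower in 4 of 12 other fits with all mice and in 2 of 9 with a mouse left out, those without naïve mouse 1 or 3. The adjusted p by edgeR, DESeq2 or limma voom ran from 0.0266 to 0.57 over the 12, and with the correction for length and GC content the value was 0.07.

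Lrp1, a very large endocytic receptor of the LDL receptor family, lay higher in both light-exposed groups, a difference that for TD139 was lost with correction for length. It stood at 185, 204 and 205 CPM in the naïve mice, at 290, 254 and 253 CPM in the vehicle-treated mice and at 297, 262 and 277 CPM in the TD139-treated mice. No light-exposed mouse overlapped with the naïve mice, and both light-exposed groups overlapped with each other. The log2 fold change against naïve mice was 0.42 ± 0.10 with vehicle (adjusted p = 0.0279 by edgeR) and 0.49 ± 0.10 with TD139 (adjusted p = 0.0406). Corrected for length and GC content, the value with TD139 was 0.08 (adjusted p = 0.754 by edgeR).

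Megf10, an engulfment receptor with EGF repeats, followed the same order. It stood at 15.8, 15.4 and 19.2 CPM in the naïve mice, at 32.6, 20.5 and 26.9 CPM in the vehicle-treated mice and at 29.4, 29.3 and 29.0 CPM in the TD139-treated mice. The naïve mice lay below all others, and the TD139-treated mice lay inside the vehicle range. Relative to naïve mice the log2 fold change was 0.67 ± 0.16 with vehicle (adjusted p = 0.0333 by edgeR) and 0.80 ± 0.16 with TD139 (adjusted p = 0.0406). Corrected for length and GC content, Megf10 stood at 0.46 with TD139 and missed the threshold (adjusted p = 0.137 by edgeR).

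TD139 was then set against vehicle, which asks how the light-exposed retina differs with TD139 treatment. Axl, Tyro3 and Itgb5 fell. Of the 10 members 3 were lower and 0 higher by edgeR, where 16.2% of all tested genes were lower and 17.2% higher. All TD139-treated mice lay below all vehicle-treated mice for 6 members and above them for 0, against 25.4% and 26% of all tested genes. The median log2 fold change was -0.24 over the members and -0.0164 over all tested genes. At an unadjusted p under 0.05, 5 members were lower and 0 higher, against 23% and 23.4% of all tested genes. After adjustment DESeq2 and limma voom each gave 5 lower and 0 higher, Pros1 and Mfge8 being added, where DESeq2 called 18.7% of all tested genes lower and 19.9% higher and limma voom 16.6% and 17.5%. The 3 vehicle-treated mice enter this comparison and the one with naïve mice, so the values of both are not independent.

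TD139 was last set against naïve mice. Lrp1 and Megf10 were the 2 members that were higher by edgeR and 0 were lower, where 2.72% of all tested genes were higher and 2.38% lower. Both calls were lost with the correction for length and GC content, with the replicate number as a block (adjusted p = 0.0725 for each by edgeR) and with only the 2 groups fitted, and each was made in 8 of 12 other fits with all mice. With the block 0 of all tested genes were called by edgeR (4372 at an unadjusted p under 0.05), and with the 2 groups 1 was. The log2 fold changes were then 0.49 and 0.50 for Lrp1 and 0.80 in both fits for Megf10. At an unadjusted p under 0.05, 2 members were higher and 2 lower, against 15.5% and 14.1% of all tested genes. DESeq2 called 1 lower, Gas6 (adjusted p = 0.0416, up to 0.789 in the other fits with all mice), where it called 7.8% of all tested genes lower. The members without overlap were Lrp1 and Megf10 above and Gas6 and Mfge8 below the naïve mice, against 15.3% and 16.8% of all tested genes. The differences of the 3 genes that fell with TD139 were 0.22 for Axl (95% interval -0.47 to 0.92), 0.06 for Tyro3 (-0.26 to 0.37) and -0.12 for Itgb5 (-0.39 to 0.15) on the log2 scale. A miss of the threshold does not show that their levels were equal to those of naïve mice.

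**Figure D2:**
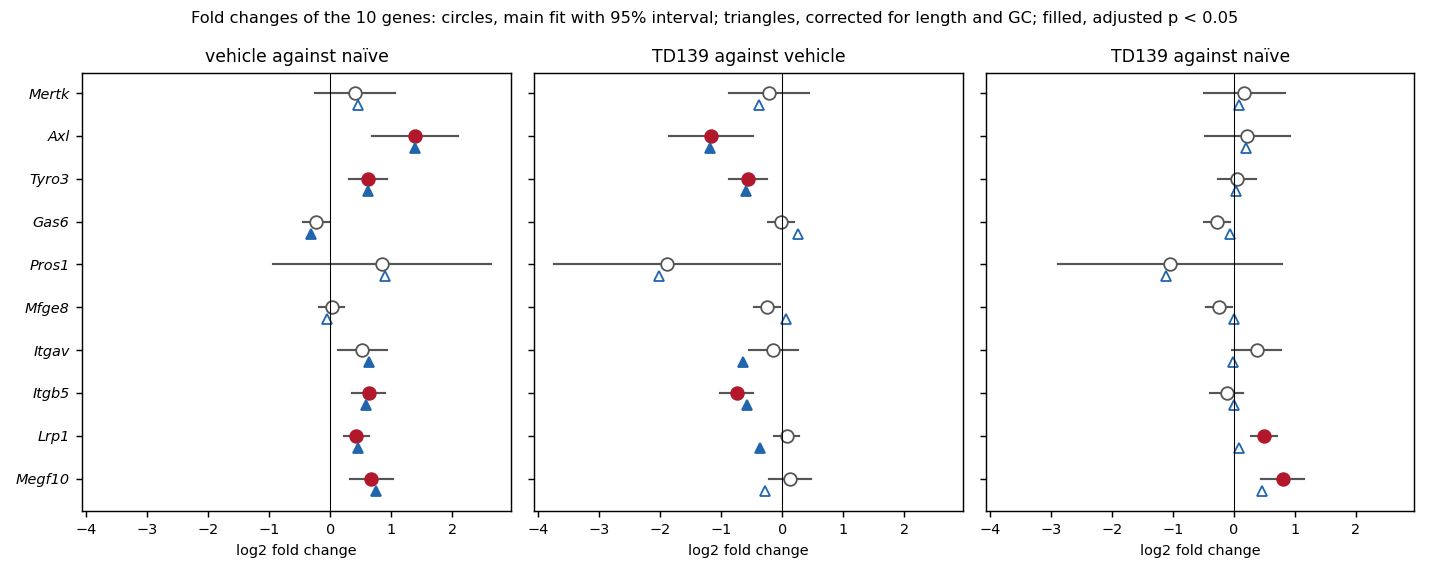
Log2 fold change (x axis) of the 10 genes in the 3 comparisons, with circles and 95% intervals from the edgeR fit and triangles from the same fit corrected for transcript length and GC content. Filled symbols have an adjusted p under 0.05. Circles and triangles nearly coincide between vehicle-treated and naïve mice, whereas the triangles of Itgav, Lrp1 and Megf10 lie to the left of their circles in the other comparisons.

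Fold changes moved with the length of the transcript in both comparisons with TD139. Across 15070 genes the Spearman correlation of the log2 fold change with the longest transcript was -0.11 for vehicle against naïve, 0.49 for TD139 against vehicle and 0.59 for TD139 against naïve. These are correlations across genes of the same libraries, which are not independent. The reads outside genes had their highest share in the TD139-treated mice, at 21.3 to 22.8% against 16.5 to 19.9% in the others. The members differ in length from 2330 bases for Mfge8 to 14888 for Lrp1, with 7514 for Megf10, 7054 for Itgav, 4460 for Tyro3, 4265 for Axl and 3282 for Itgb5.

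**Figure D3:**
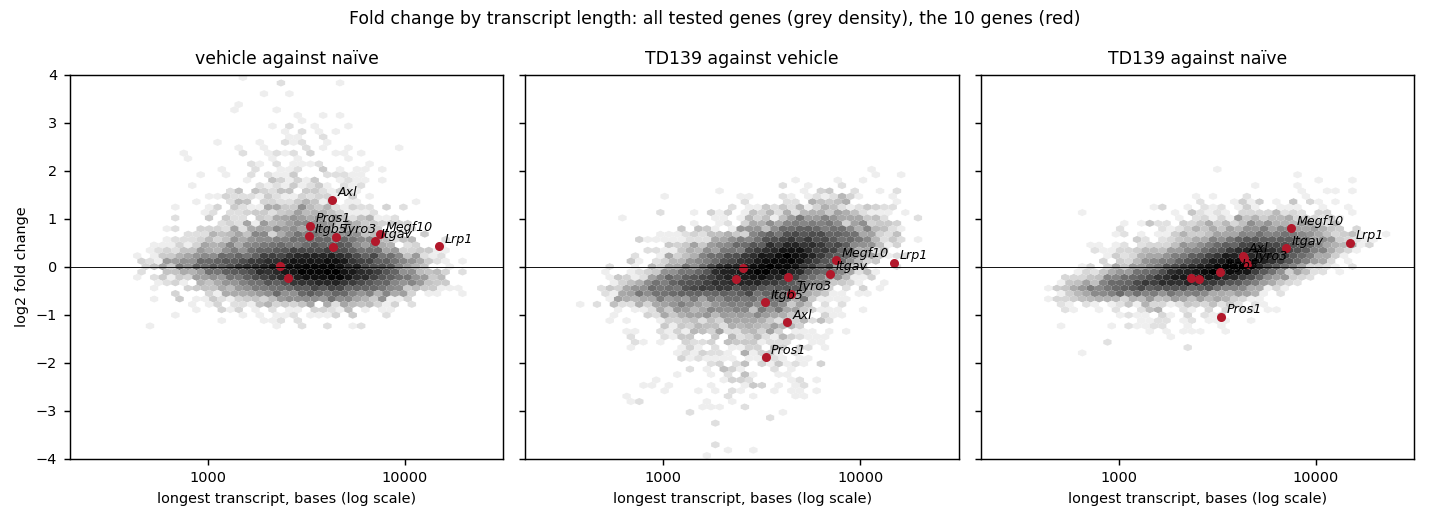
Log2 fold change (y axis) against the longest transcript in bases (log x axis) for all tested genes with a length, as grey density, and for the 10 genes in red. Genes beyond the axes are not drawn. The grey cloud is level on the left (Spearman -0.11) and rises with length in both comparisons with TD139 (0.49 and 0.59), and Lrp1, the longest of the 10, lies low in the cloud at its length in the middle panel.

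With each library corrected for length and GC content, the rises of Axl, Tyro3, Itgb5, Lrp1 and Megf10 in vehicle-treated mice and the falls of Axl, Tyro3 and Itgb5 with TD139 were again past the threshold. Itgav then rose by 0.64 in vehicle-treated mice on the log2 scale (adjusted p = 0.018 by edgeR) and fell by 0.65 with TD139 against vehicle (adjusted p = 0.0124), and over the 12 other fits with all mice its adjusted p ran from 0.018 to 0.13 and from 0.0124 to 0.746. Gas6 fell by 0.32 in vehicle-treated mice (adjusted p = 0.0345 by edgeR, 0.0345 to 0.324 over the 12 fits). Lrp1, at 0.07 uncorrected, changed direction with TD139 against vehicle to -0.37 (adjusted p = 0.0332 by edgeR, 0.0204 to 0.936 over the 12 fits). For the TD139 values of Lrp1 and Megf10 against naïve mice, given above, the adjusted p ran from 5.61e-05 to 0.754 and from 0.000487 to 0.141 over the 12 fits by edgeR, DESeq2 or limma voom. In that fit 0 of all tested genes were called against naïve mice, with 2549 at an unadjusted p under 0.05. Which of these fits is nearer to the abundance in the retina was not tested.

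The number of calls, over all genes as over the members, also depended on single mice. In vehicle-treated against naïve mice, leaving out any 1 of the 3 naïve mice gave 0 members, and so did leaving out vehicle-treated mouse 3. Over all tested genes these fits called 1 to 140 higher and 0 to 77 lower by edgeR, in place of 746 and 439, with 3279 to 4179 at an unadjusted p under 0.05. The log2 fold change of Axl lay between 1.18 and 1.55 over the 9 fits with a mouse left out, that of Itgb5 between 0.50 and 0.71 and that of Lrp1 between 0.36 and 0.46. Tyro3 lay between 0.58 and 0.68 and Megf10 between 0.51 and 0.82. Itgb5 alone was called without vehicle-treated mouse 1, where 219 of all genes were higher, and without vehicle-treated mouse 2 all but Tyro3 of the 5 were called, where 620 were higher. With TD139 against vehicle, Itgb5 was called in 9 of 9 such fits, Tyro3 in 7 and Axl in 6, with all 3 called without vehicle-treated mouse 2. Over these fits the log2 fold change ran from -0.72 to -0.48 for Tyro3 and from -1.61 to -0.94 for Axl. A single member was called without TD139-treated mouse 2 or 3, where 759 and 867 of all genes were lower in place of 2455, and 5 members were called without naïve mouse 3, where 2645 were lower. Lrp1 and Megf10 were called against naïve mice in 4 of 9, with log2 fold changes over the 9 fits from 0.46 to 0.55 and from 0.75 to 0.91. The count of members called was 0 when naïve mouse 1, naïve mouse 2, vehicle-treated mouse 2, TD139-treated mouse 2 or TD139-treated mouse 3 was absent. In the same 5 fits 0 of all tested genes were called by edgeR, with 2848 to 4368 at an unadjusted p under 0.05, so these counts are not particular to the members.

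Markers of phagocytes and glia also differed between the groups. The 13 markers of microglia and macrophages summed to 66.2 to 70.8 CPM in the naïve mice, 279 to 513 CPM in the vehicle-treated mice and 48.0 to 171 CPM in the TD139-treated mice, with TD139-treated mouse 1 the highest of its group. Of the 13, 8 rose with light and vehicle and 11 fell with TD139, where 4.91% of all tested genes rose and 16.2% fell. The complement genes C1qa and C1qc stood at log2 fold changes of 3.31 and 3.50 with light without passing the test, and at -2.51 (not past the threshold) and -2.83 (past it) with TD139. The 9 Müller glia markers summed to 4277 to 4896, 5850 to 6347 and 4754 to 5683 CPM in the same order of groups. Of these markers 5 rose with light and vehicle and 3 fell with TD139, against the same shares of all tested genes. Of the most abundant, Dkk3 stood at 0.75 and -0.51 and passed both tests, whereas Glul (0.16 and -0.00278) and Rlbp1 (0.32 and -0.22) passed neither.

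Axl ordered the light-exposed mice as the sum of the microglia markers did, with vehicle-treated mouse 3 highest and TD139-treated mouse 1 next below the vehicle-treated mice, except that TD139-treated mice 2 and 3 changed places. Among the naïve mice it did not, as mouse 1 had the highest sum and the lowest Axl, and mouse 2 the lowest sum and the highest Axl. Tyro3 did not follow the sum among the vehicle-treated mice, where mouse 3 had the highest sum and the lowest Tyro3. Itgb5 did not follow it among these mice either, as vehicle-treated mouse 2 had its highest level and the lowest microglia sum of its group. For Tyro3 and Itgb5, as for Axl, all vehicle-treated mice lay above all TD139-treated mice. TD139-treated mouse 1, with the highest sum of its group, was also the highest of its group for these genes. Markers of the retinal pigment epithelium, a layer that can remain on a dissected retina, summed to 114 to 276 CPM in the naïve mice, 230 to 488 CPM in the vehicle-treated mice with mouse 2 highest, and 136 to 196 CPM in the TD139-treated mice. With light Ttr, Rgr and Rpe65 stood at 1.04, 0.58 and 0.57 on the log2 scale without passing the test, and with TD139 against vehicle Ttr (-1.42) and Rpe65 (-0.83) fell while Rgr (-0.89) did not pass it. Among all 8 markers of this layer 0 were at 0 in all mice. Astrocyte markers summed to 29.3 to 44.6, 80.5 to 97.8 and 22.4 to 42.7 CPM in naïve, vehicle-treated and TD139-treated mice, and those of endothelial cells and pericytes to 194 to 277, 357 to 499 and 255 to 490 CPM. Of 3 tested astrocyte markers 1 was higher with light and vehicle, and of 8 endothelial and pericyte markers 0 were called. Of all tested genes 4.91% were higher and 2.89% lower there. With TD139 against vehicle 2 astrocyte markers were lower. In the same comparison 1 endothelial or pericyte marker was higher and 1 lower, against 17.2% and 16.2% of all tested genes. Rod markers were lower in the vehicle-treated mice, at 38825 to 54007 CPM, than in the naïve mice at 67064 to 75878 CPM, with 55308 to 68837 CPM in the TD139-treated mice. The part of these cells in the levels of the members was not tested.

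**Figure D4:**
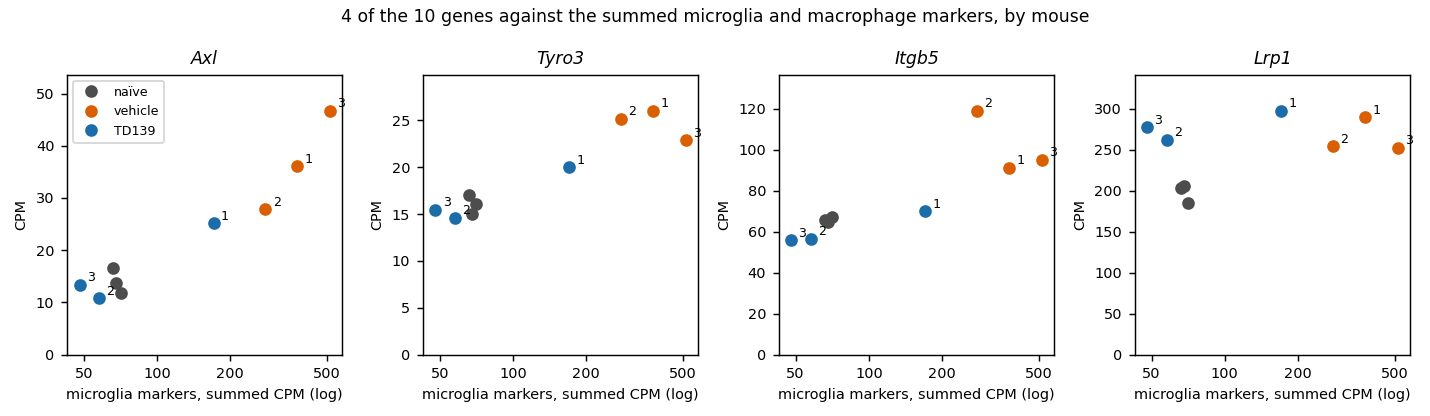
Levels of Axl, Tyro3, Itgb5 and Lrp1 in CPM (y axes, from 0) against the summed CPM of 13 microglia and macrophage markers (log x axis), with 1 point per mouse and the mouse numbers beside the light-exposed mice. TD139-treated mouse 1 lies between its group and the vehicle-treated mice for Axl, Tyro3 and Itgb5. Lrp1, not corrected for length here, is highest in TD139-treated mouse 1 and also high in TD139-treated mice 2 and 3, whose marker sums are the lowest.

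Genes with the profile most like that of a member over the 9 mice were looked up among 11638 genes, by the root mean square difference of log2 CPM after centring. These levels were not corrected for length or GC content, so a shared trend with length can enter the likeness. Nearest to Axl were Ddx58, Grn and Pdpn with differences of 0.165, 0.178 and 0.186, against a spread of Axl itself of 0.714. Nearest to Tyro3 were Bves, Pld2 and Lhx2 at 0.0660 to 0.0857, against 0.311 for Tyro3 itself, and nearest to Itgb5 were Idh2, Acadl and Laptm4a at 0.0778 to 0.0926, against 0.350. Lrp1 was followed most closely by Spock1, Maml3 and Abat at 0.0590 to 0.0711, and Megf10 by Onecut2, AI593442 and Lin7a at 0.109 to 0.130, with own spreads of 0.231 and 0.390.

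A list of 57 other genes of the clearance pathway, from phosphatidylserine exposure to the phagosome, held 54 tested genes. With light and vehicle 12 of the 54 rose and 2 fell by edgeR, where 4.91% of all tested genes rose and 2.89% fell. The receptors Stab1, stabilin-1 of macrophages, and Cd36, a scavenger receptor, rose with log2 fold changes of 2.21 and 2.28, and 3 of 10 other phosphatidylserine receptors rose in all. Of 8 further bridging molecules 3 rose and 2 fell, and those that fell were Tulp1 (-0.59) and Tub (-0.74), tubby proteins that are TAM ligands and, in the case of Tulp1, a photoreceptor protein. Socs3, a cytokine signalling inhibitor that TAM receptors induce, rose by 2.56, and the small GTPases Rac1 and Rhog of the engulfment pathway by 0.38 and 0.91. Of 8 genes of phosphatidylserine exposure and its counter-signals, the scramblase Ano6 (0.45) and the don't-eat-me protein Cd47 (0.47) rose. Of 7 phagosome genes and 4 lipid-sensing nuclear receptors 0 passed the test by edgeR. Without any 1 naïve mouse, or without vehicle-treated mouse 1 or 3, between 1 and 5 of the 54 were higher in place of 12, and 1 to 219 of all tested genes in place of 746.

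Lgals3, which encodes galectin-3, itself described as a ligand of Mertk, stood at 10.1, 7.27 and 5.61 CPM in the naïve mice, 36.1, 38.0 and 67.2 CPM in the vehicle-treated mice and 10.6, 3.90 and 2.77 CPM in the TD139-treated mice. The vehicle-treated mice lay above all others and TD139-treated mouse 1 was the highest of its group. The log2 fold change was 2.62 ± 0.52 with light (adjusted p = 0.0289 by edgeR) and -3.03 ± 0.53 with TD139 (adjusted p = 0.00727). Both sizes exceeded those of all 10 members. Tulp1 stood at 2675, 2221 and 1876 CPM in the naïve mice, 1536, 1768 and 1192 CPM in the vehicle-treated mice and 1582, 1839 and 1765 CPM in the TD139-treated mice. The light-exposed groups of Tulp1 overlapped with each other and lay below the naïve mice.

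**Figure D5:**
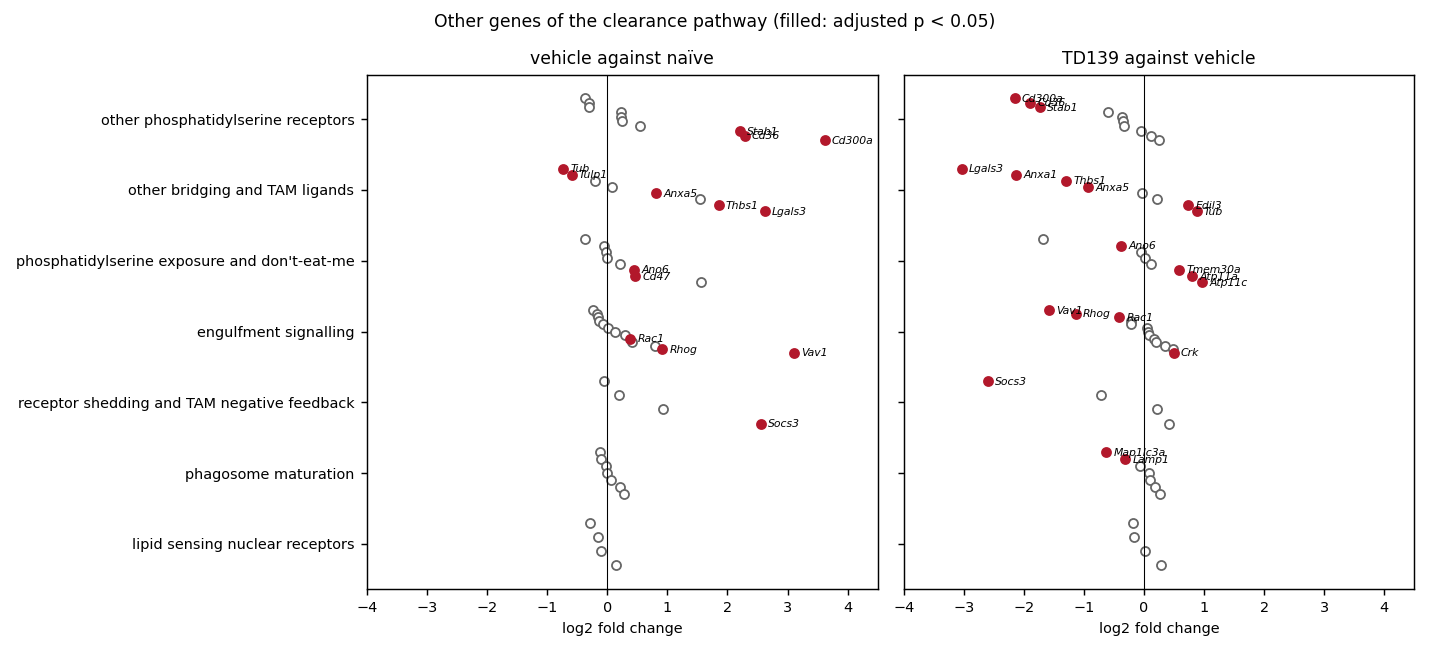
Log2 fold change (x axis) of the 54 tested genes of the wider list by role (y axis), in vehicle-treated against naïve mice (left) and TD139-treated against vehicle-treated mice (right). Filled points with names have an adjusted p under 0.05. Stab1, Cd36, Lgals3 and Socs3 lie far to the right with light and far to the left with TD139, and Cd300a, the point farthest right, had 4 reads in each naïve mouse.

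With TD139 against vehicle, 14 of the 54 genes fell and 6 rose, where 16.2% of all tested genes fell and 17.2% rose. Stab1 (-1.74), Cd36 (-1.90), Socs3 (-2.60), Rac1 (-0.42) and the phosphatidylserine-binding annexin Anxa5 (-0.93) fell, as did the lysosomal protein Lamp1 (-0.31) and the autophagosome protein Map1lc3a (-0.63). Tub rose by 0.88, Atp11a and Tmem30a, a flippase and its partner that keep phosphatidylserine inside the membrane, by 0.80 and 0.58, and the adaptor Crk by 0.49. With the correction for length and GC content Lamp1 stood at -0.06, Map1lc3a at -0.11, Tmem30a at 0.27 and Crk at 0.23 and did not pass the test, whereas Stab1, Cd36, Socs3, Rac1, Anxa5, Tub and Atp11a did. Without vehicle-treated mouse 3, TD139-treated mouse 2 or TD139-treated mouse 3, 9 of the 54 fell in place of 14 and 3 to 4 rose in place of 6, while 759 to 1286 of all tested genes fell in place of 2455 and 867 to 1240 rose in place of 2617. In TD139-treated against naïve mice Cd47 was the 1 gene of the 54 that was higher (0.42) and 0 were lower by edgeR, and with the correction Cd47 stood at 0.09 (adjusted p = 0.716 by edgeR). At an unadjusted p under 0.05, 12 of the 54 were higher and 4 lower, against 15.5% and 14.1% of all tested genes, and DESeq2 called 8 and 3, against 9.52% and 7.8%.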

How the data were processed

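Libraries of poly(A) RNA were sequenced on 2 flow cell runs per mouse. The authors deposited, for each run, whole-number counts of reads per gene from BaseSpace RNA Express, unscaled. The submitters' processing notes name mm10, and the annotation and strand setting are not given in the sources used here. For every mouse the counts of both runs were added, so that mice are the replicates. Reads outside genes (16.5 to 22.8%) or on several genes (0.303 to 0.471%) were left out. Length and GC content came from GENCODE M21 on GRCm38, to which 98.47% of the symbols could be joined, and promoters came from RefSeq.

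A quasi-likelihood F test (robust) of edgeR 4.0.16 under R 4.3.3 was fitted to the 3 groups together after filterByExpr and TMM, with Benjamini-Hochberg adjustment over 15196 genes. The SE is the log2 fold change over the square root of F. Alternatives were RLE (DESeq2 1.42.0) or library size alone, other filters, DESeq2's Wald test, limma voom 3.58.1, fewer groups, the replicate number as a block, single runs, each mouse left out, and an offset from splines with 4 degrees of freedom on length and GC content. The steps were tested on simulated data. The members, gene lists and alternatives were chosen with earlier results of these data known. Named were all members, Lgals3 and Tulp1, of each role in the wider list the 2 called genes with the highest mean CPM, up to 3 abundant genes per marker list, and 3 genes like each called member. The pathway plot names all called genes. A gene that this naming rule selects is not reported here.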

Additional observations from a re-analysis of the deposited data

How the results depend on the processing

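In the 12 other fits with all mice, 4 to 6 members were called higher with light and vehicle, and 1 was lower with the length and GC correction, with or without the block, where 559 to 1355 of all tested genes were higher over the 12 fits and 969 and 976 lower with the correction. In TD139-treated against vehicle-treated mice the count of lower members was 5 with DESeq2, limma voom, the 2 groups alone and the length and GC correction with or without the block, in which 1511 to 2839 of all tested genes were lower. Against naïve mice 0 members were higher with TD139 when 2 groups alone, the replicate block or the correction, with or without the block, were used, where at most 1 of all tested genes was called by edgeR (2531 to 4372 at an unadjusted p under 0.05), and 1 was lower with DESeq2. Of the wider list, 1 gene was lower in vehicle-treated against naïve mice with library size alone, a mean of at least 10 counts or 2 groups alone, against 2, and 258, 403 and 561 of all genes were. In TD139-treated against naïve mice 8 were higher and 3 lower with DESeq2, 0 were higher with limma voom, 2 groups alone, the replicate block, the correction with or without the block or the first run, and 1 was lower with the second run. Of all genes, limma voom called 204 higher, the first run 328 higher and the second run 363 lower. Over the 9 fits with a mouse left out, members higher in vehicle-treated against naïve mice ranged from 0 to 5 and wider-list genes from 1 to 13 higher and 0 to 3 lower. For TD139-treated against vehicle-treated mice the ranges were 1 to 5 members lower, and 3 to 8 wider-list genes higher and 9 to 15 lower, and against naïve mice 0 to 3 members higher, and 0 to 7 wider-list genes higher and 0 to 2 lower. Over all genes the same fits gave 1 to 1167 higher and 0 to 815 lower, 867 to 2995 and 759 to 2931, and 0 to 1523 and 0 to 1156 in the 3 comparisons.

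The directions of Mfge8, Gas6, Lrp1 and Megf10 depended on the correction for length and GC content. With it, Mfge8 stood at -0.0648 (-0.0647 with the block) in vehicle-treated against naïve mice, 0.0663 (0.0667) in TD139-treated against vehicle-treated and 0.00151 in TD139-treated against naïve mice (0.00204 with the block). In TD139-treated against vehicle-treated mice Gas6 stood at 0.26, Lrp1 at -0.37 (-0.38 with the block) and Megf10 at -0.28 (-0.27), and against naïve mice Itgav at -0.00753 and Itgb5 at 0.00234. With library size alone Lrp1 stood at -0.0125 against vehicle-treated mice. With a mouse left out in turn, some ranges held both signs. They ran from -0.0424 (without naïve mouse 3) to 0.112 for Mfge8 with light. With TD139 against vehicle they ran from -0.0896 to 0.0453 for Gas6 (above 0 without vehicle mouse 2 or TD139 mouse 1 or 2) and from -0.0261 (without vehicle mouse 2) to 0.301 for Megf10. With TD139 against naïve they ran from -0.0786 (without naïve mouse 1) to 0.639 for Mertk, from -0.217 to 0.459 for Axl and -0.0850 to 0.153 for Tyro3 (both below 0 without TD139 mouse 1), and from -1.43 to 0.10 for Pros1 (above 0 without naïve mouse 3). The cause was not tested.

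The replicate numbers do not pair the mice: deviations of same-numbered mice correlated between -0.26 and 0.28, over 0.1 in 2 of 9 pairs. With the replicate block 4 members were higher in vehicle-treated against naïve mice, Axl missing the threshold (adjusted p = 0.0583 by edgeR, 8.65e-05 to 0.0583 over the 12 fits), 3 were lower with TD139 against vehicle and 0 were called against naïve mice. Over all genes the block gave 559 higher and 341 lower, 2436 and 2336, and 0 and 0 in these comparisons.

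Over all genes, 1355 were higher and 1063 lower with light by DESeq2 against 746 and 439 by edgeR, and for TD139-treated against naïve mice 1447 and 1185 against 413 and 362. Of the calls, 63, 51.6 and 53.3% were higher in the 3 comparisons in the order above, and 77.6, 39 and 65.4% with library size alone. With the correction 1467 genes rose and 1646 fell with TD139 against vehicle (2617 and 2455 without it), and 52.9% of the calls with light were higher. Between the 3 naïve mice the levels of Mertk, Pros1 and Itgav spread 2.59-, 5.77- and 1.90-fold, which limits the precision of their fold changes.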
